A study of Arabidopsis thaliana with 6 samples.

Results

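Xyloglucan endotransglucosylase/hydrolase (XTH) genes were followed in Arabidopsis thaliana embryos that carry the dcl1-15 mutation of DCL1 on both chromosomes, and in wild-type embryos. Xyloglucan is a glucose-backbone polysaccharide that coats and links cellulose in the primary wall of growing plant cells. XTH enzymes are secreted proteins that cut a xyloglucan chain and either join the cut end to another chain or release it, so that walls can be loosened, extended and rebuilt while cells expand. DCL1 is a Dicer-like enzyme, and plants need it to release most of their microRNAs from longer precursors.

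The members are the probe sets of the deposited table that name a single gene whose symbol is XTH followed by a digit. The rule found 5 of the 9532 different genes that had a probe set of their own, among 17122 probe sets tested: XTH16, XTH18, XTH19, XTH32 and XTH33, each with 1 probe set. The RefSeq gene table lists 33 XTH genes for Arabidopsis under a current or older name. A further family gene, EXGT-A3 (older name XTH27), was measured under its own symbol and is described apart from the members. The remaining family genes were not analysed here.

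RNA from embryos was hybridised to 6 single-colour arrays, 3 for each genotype. The mutant embryos were homozygous dcl1-15, taken from DCL1/dcl1-15 plants out of siliques whose normal embryos had reached the torpedo stage, when the cotyledons elongate. Torpedo-stage embryos of DCL1/DCL1 sibling plants were the wild-type group, so the genotype of the embryo and that of its mother cannot be told apart in the comparison. Both groups descend from seeds of a DCL1/dcl1-15 plant of Ws origin, backcrossed 6 to 7 times to Landsberg erecta, per the labels. Each sample pooled 300 embryos, collected in lots of 10 that alternated between genotypes, and 50 ng of RNA was amplified for each array. The labels call the samples biological replicates, without saying whether they came from separate sets of plants, and number them 1 to 3 in each genotype.

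Values are normalized log2 intensities, and 1 unit is a doubling. Array medians ran from 6.34 to 6.48, and 26.5% to 27.8% of probe sets on an array lay under log2 of 4. No detection calls were used, so values near log2 of 2 have no stated distance from background. The arrays numbered 1 stood apart from the others in both genotypes. DCL1 had no probe set of its own among those with a single named gene, so its level could not serve as a check of the genotype labels. In a bulk sample, fewer cells of a type and less RNA per cell cannot be told apart.

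In dcl1-15 embryos 4 of the 5 XTH genes rose (limma, adjusted p under 0.05) and XTH33 did not pass. XTH19 and XTH16, both above log2 of 5 on every array, measured 6.83-fold and 4.39-fold higher in dcl1-15. XTH32 and XTH18 were 1.70-fold and 1.61-fold higher, at levels under log2 of 4 on every array. Limma called 0 of the 5 lower, and 0 were lower by an unadjusted p under 0.05. Over all probe sets 39.1% were called, 18.3% higher and 20.8% lower. The median difference of the members was 0.76, beside -0.07 over all probe sets. The 3 values of each genotype did not overlap in 4 of the 5 members, as in 52.5% of all probe sets.

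**Figure D1:**
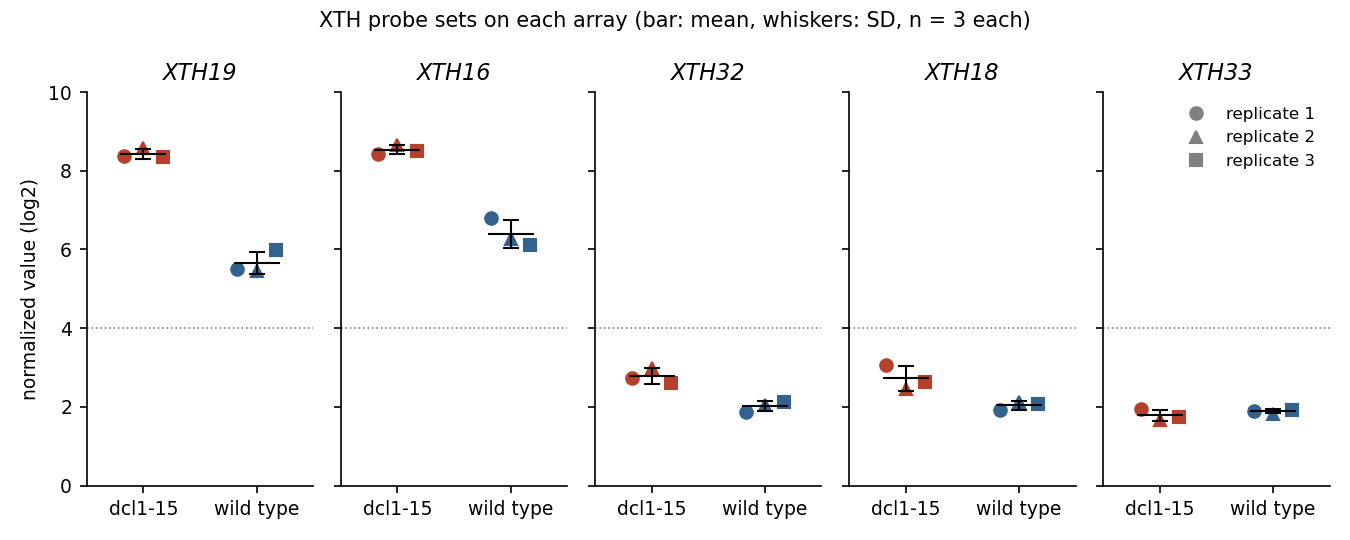
Normalized log2 values of the 5 XTH probe sets on each array, with dcl1-15 left of wild type in each panel. Symbols mark the replicate number, bars the mean and whiskers the SD (n = 3 each), and the dotted line log2 of 4. XTH19 and XTH16 stand clear of their wild-type values, by gaps of 2.36 and 1.64 between the nearest arrays, whereas XTH33 overlaps.

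XTH19 and XTH18 are adjacent genes on chromosome 4, with no gene between them in RefSeq order, and belong to a subgroup of XTH genes known for expression in roots. XTH19 (AT4G30290) measured 8.36, 8.57 and 8.34 on the dcl1-15 arrays, against 5.52, 5.46 and 5.98 on the wild-type arrays. All dcl1-15 values lay above all wild-type values, and the lowest of them exceeded the highest wild-type value by 2.36. The means were 8.42 ± 0.12 in dcl1-15 and 5.65 ± 0.28 in wild type (SD, n = 3 each). The difference was 2.77 ± 0.23 on the log2 scale (SE, 95% interval 2.24 to 3.30, limma adjusted p = 6.14e-05), or 4.73-fold to 9.86-fold. A larger rise was seen in 292 of the 17122 probe sets.

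XTH18 (AT4G30280), the neighbour, measured 3.07, 2.46 and 2.64 in dcl1-15, against 1.91, 2.13 and 2.07 in wild type. The groups did not overlap, but the nearest values were 0.32 apart and dcl1-15 replicate 1 stood above the other mutant arrays. The rise was 0.68 ± 0.18 (SE, 95% interval 0.27 to 1.10, limma adjusted p = 0.0180). This call was lost in a test on each probe set's own spread alone (adjusted p = 0.138), when arrays were centred on 4 reference genes (adjusted p = 0.0688), and without both arrays numbered 2 (adjusted p = 0.0594) or 3 (adjusted p = 0.0964). Without both arrays numbered 1 the rise was 0.45 and passed (adjusted p = 0.0322). A larger rise was seen in 3021 probe sets.

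The sizes of change in this adjacent pair were set against each other within arrays. On single arrays the XTH19 value exceeded that of XTH18 by 5.29 to 6.11 in dcl1-15 and by 3.33 to 3.91 in wild type. The gap was wider by 2.09 in dcl1-15, and the genotypes did not overlap. An exact two-sided permutation test over the arrays gave p = 0.10, the smallest that 3 arrays against 3 allow, so this design could not pass 0.05. That test did not use the replicate numbers, and with same-numbered arrays paired the exact p was 0.25, again the smallest possible. Probe sets differ in their response to RNA, and XTH18 lay near the low end of the scale.

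XTH16 (AT3G23730), on chromosome 3, encodes another secreted enzyme of the family. It measured 8.43, 8.65 and 8.50 in dcl1-15, against 6.79, 6.27 and 6.12 in wild type. The mutant arrays lay close together and all above the wild-type arrays, among which replicate 1 was highest. The means were 8.53 ± 0.11 in dcl1-15 and 6.40 ± 0.35 in wild type (SD, n = 3 each). XTH16 rose by 2.14 ± 0.24 (SE, 95% interval 1.60 to 2.67, limma adjusted p = 0.000266), and 552 probe sets rose by more. The intervals of XTH16 and XTH19 overlap, and the difference between their changes was not tested.

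XTH32 (AT2G36870), on chromosome 2, falls with XTH31 in a separate clade of the family whose member XTH31 has strong hydrolase activity, which cuts xyloglucan without rejoining it. XTH32 measured 2.74, 2.99 and 2.61 in dcl1-15, against 1.88, 2.04 and 2.13 in wild type. The groups were 0.48 apart at their nearest values, and every value lay under log2 of 3. XTH32 rose by 0.76 ± 0.16 (SE, 95% interval 0.40 to 1.12, limma adjusted p = 0.00591). The call was lost on its own spread alone (adjusted p = 0.0548) and without both arrays numbered 2 (adjusted p = 0.0826).

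XTH33 (AT1G10550), on chromosome 1, encodes a family member reported at the plasma membrane. It measured 1.94, 1.68 and 1.75 in dcl1-15, against 1.91, 1.83 and 1.93 in wild type. The groups overlapped, with dcl1-15 replicate 1 above every wild-type array and the other mutant arrays below them. The difference was -0.10 ± 0.12 (SE, 95% interval -0.38 to 0.18, limma adjusted p = 0.564). All values lie under log2 of 2, with no stated distance from background.

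The 2 brighter members and the 3 dim ones were set against probe sets of like level. Of the 10998 probe sets with a mean of at least log2 of 5, 39.8% were called, 17.8% higher and 22% lower, with a median difference of -0.09. Of the 2774 with a mean under log2 of 3, 28.5% were called, 16.3% higher and 12.2% lower, with a median of 0.01. The within-genotype SD, pooled over both genotypes, was 0.22 for XTH19 and 0.26 for XTH16, beside a median of 0.27 among the brighter probe sets. It was 0.24, 0.17 and 0.10 for XTH18, XTH32 and XTH33, beside a median of 0.21 among the dim ones. The replicates of XTH18 thus spread somewhat more than the median at its level, and those of the other members less.

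**Figure D2:**
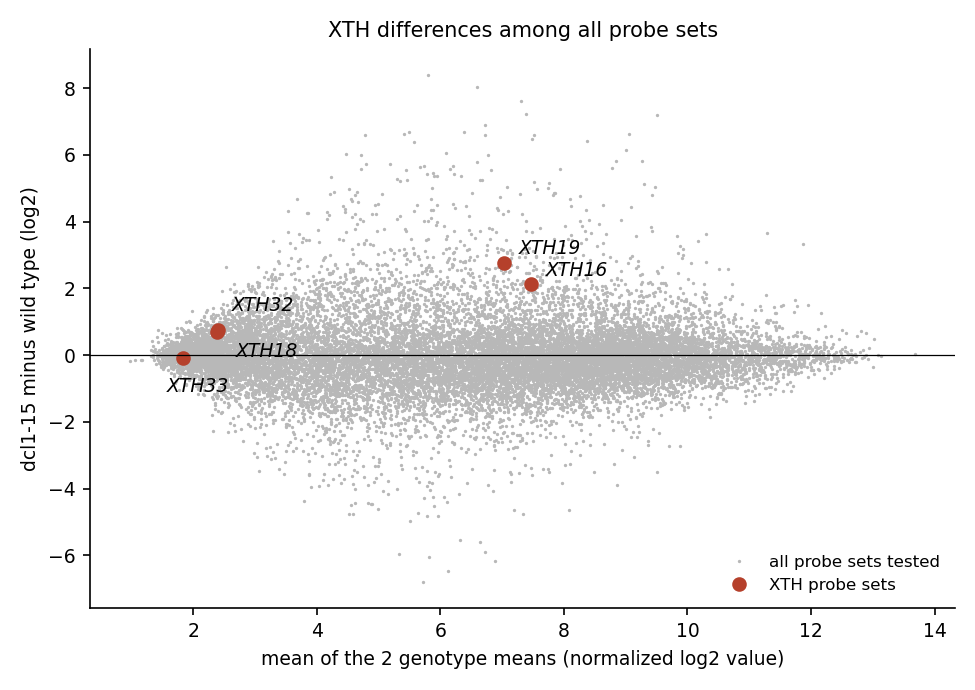
Each grey point is 1 of the 17122 probe sets, with its mean log2 level on the x axis and the log2 difference of dcl1-15 minus wild type on the y axis. Red points are the XTH members: XTH19 at 2.77 and XTH16 at 2.14 lie toward the upper edge, XTH32 and XTH18 at 0.76 and 0.68 nearly coincide at the dim end, and XTH33 lies at -0.10.

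EXGT-A3 (AT2G01850) encodes an XTH enzyme known from leaf veins, where it acts in water-conducting cells. It measured 8.42, 8.58 and 9.16 in dcl1-15, against 6.40, 7.79 and 7.52 in wild type. The groups did not overlap, and wild-type replicate 1 was more than 1 unit below the other wild-type arrays. EXGT-A3 rose by 1.49 ± 0.37 (SE, limma adjusted p = 0.0130), or 2.80-fold. Without dcl1-15 replicate 3 it did not pass (adjusted p = 0.0563), nor without both arrays numbered 3 (adjusted p = 0.0788) or on its own spread alone (adjusted p = 0.141). With it, 5 of the 6 measured genes of the 33-gene family rose, with a median difference of 1.12. Over all probe sets 18.3% were called higher. Of the 6, 3 lay under log2 of 4 on all arrays, and the calls of EXGT-A3, XTH18 and XTH32 were lost on their own spread alone.

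Other wall genes were taken from lists of xyloglucan synthesis, xyloglucan trimming, expansins, cellulose synthesis and pectin, with 74 genes in all. Of these, 18 were measured, 6 rose (7 with the replicate number as a block), 1 fell and 11 did not pass, with a median difference of 0.21. Over all probe sets 18.3% were called higher and 20.8% lower. No gene of the trimming list was measured, nor any of 12 genes of brassinosteroids, hormones that promote cell expansion. In all lists, measured means having a probe set that names that gene alone. Of the 17122 probe sets tested, 7126 named no gene, so listed genes that count as unmeasured may lie among them.

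All 5 measured genes of xyloglucan synthesis were CSLC genes, which encode the glucan synthases of the xyloglucan backbone, the substrate of XTH enzymes. CSLC12 measured 4.26, 3.66 and 3.41 in dcl1-15, against 2.33, 2.48 and 2.13 in wild type, and rose by 1.47 ± 0.24 (SE, limma adjusted p = 0.00192). All its mutant values lay above its wild-type values, yet only dcl1-15 replicate 1 exceeded log2 of 4, and with a floor there the difference was 0.09 (adjusted p = 0.537). On its own spread alone it did not pass either (adjusted p = 0.0799). CSLC04 (also CSLC4) rose by 0.67 ± 0.18 (limma adjusted p = 0.0195), all under log2 of 4. Its call was lost without dcl1-15 replicate 3 (adjusted p = 0.0704) or wild-type replicate 2 (adjusted p = 0.0756), with centring on the reference genes (adjusted p = 0.0733), on its own spread alone (adjusted p = 0.0648), and without both arrays numbered 2 (adjusted p = 0.112) or 3 (adjusted p = 0.113). CSLC5, CSLC6 and ATCSLC08 differed by 0.17, 0.05 and -0.36 and did not pass. ATCSLC08 did fall without wild-type replicate 1, with a difference of -0.57 (adjusted p = 0.0401).

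Expansins loosen the contacts between cellulose and other wall polymers without cutting them. Of 28 listed, 10 were measured, 4 rose, 1 fell and 5 did not pass, with a median difference of 0.41. With the replicate number as a block EXPA20 also passed, at a difference of 0.61 (adjusted p = 0.0330, against 0.233 without the block), which made 5 that rose. EXLA1, an expansin-like gene, averaged 10.71 ± 0.29 in dcl1-15 and 8.97 ± 0.40 in wild type (SD, n = 3 each), a rise of 1.74 ± 0.23 (SE, limma adjusted p = 0.000623). EXPB1, a beta-expansin gene, rose by 1.26 ± 0.17 (adjusted p = 0.000774). EXPB3, another beta-expansin gene, went the other way, with means of 6.10 ± 0.17 in dcl1-15 and 7.57 ± 0.19 in wild type. It fell by 1.47 on the log2 scale (SE 0.23, limma adjusted p = 0.00137) and did not pass without both arrays numbered 2 (difference -1.26, adjusted p = 0.0512). EXPB5 rose by 1.16 and EXPA4 by 0.68. EXPB5 did not pass with the floor at 4, where its difference was 0.21 (adjusted p = 0.393), or without wild-type replicate 2 (adjusted p = 0.0784) or 3 (adjusted p = 0.0667). Nor did it pass on its own spread alone (adjusted p = 0.211) or without both arrays numbered 2 (0.105) or 3 (0.0735). EXPA4 passed only without wild-type replicate 1 when single arrays were left out (highest adjusted p = 0.145). It also failed with centring on the reference genes (adjusted p = 0.101) and without both arrays numbered 2 (0.262) or 3 (0.316). Of the cellulose and pectin lists, COB, ADPG1 and ARA12 were measured and differed by -0.25, 0.52 and -0.23 (adjusted p = 0.592, 0.237 and 0.252 in that order), none past the threshold.

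**Figure D3:**
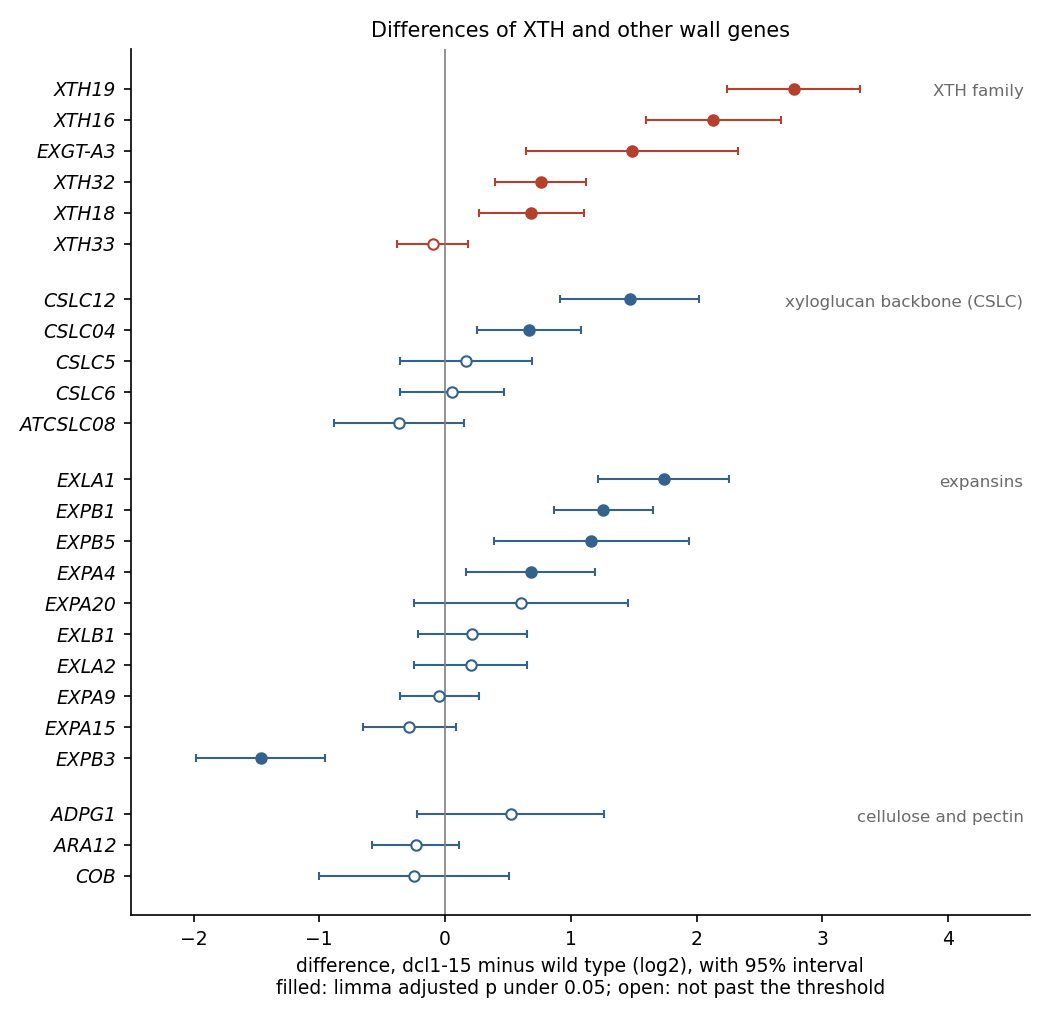
Log2 differences of dcl1-15 minus wild type with 95% intervals for the 6 measured XTH family genes (red) and the 18 other wall genes measured (blue), grouped by list. Filled points passed an adjusted p of 0.05. XTH19 and XTH16 have the highest values, 2.77 and 2.14, and EXPB3 at -1.47 is the 1 gene that fell.

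For each member the 3 named genes with the nearest profile were found, by the root-mean-square difference between mean-centred log2 values over the 6 arrays. Such a profile holds the genotype difference, so genes near a member have a like difference by construction. XTH19 lay nearest to ARPN at 0.15, a plantacyanin gene that rose by 2.70, to PWD (AT4G24450) at 0.15, which rose by 2.74, and to AT1G22330 at 0.17. XTH16 lay nearest to AT5G49280 at 0.07, AT1G22890 at 0.11 and AT1G71695 at 0.12. XTH32 lay nearest to AT4G38350, AT1G75600 and AT2G27360 (0.07 to 0.08), and XTH18 to AT1G31850, AT5G18130 and AT1G03050 (0.06 to 0.09). XTH33 lay nearest to AT5G61360, AT5G59305 and AT1G12290 (0.03 to 0.04). Among the members, XTH18 and XTH32 were nearest to each other at 0.26, and XTH19 and XTH16 were 0.46 apart. No member was among the 3 nearest of another.

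The nearest measured genes on either side of the members on the chromosomes did not share their direction throughout. AT3G23740, directly next to XTH16, fell by 1.63 (limma adjusted p = 0.00184), and AT3G23700 on its other side, with 5 genes between, fell by 1.27 (adjusted p = 0.0351). AT4G30310, past XTH19 with 1 gene between, differed by 0.14 (adjusted p = 0.577). AT4G30150, before XTH18 with 12 genes between, differed by -0.40 (adjusted p = 0.295). Near XTH33, AT1G10530 (3 genes between) rose by 2.25 (adjusted p = 7.76e-05) and AT1G10580 (2 genes between) differed by -0.24 (adjusted p = 0.499). Near XTH32, AT2G36885 (1 gene between) rose by 0.52 (adjusted p = 0.0271) and AT2G36835 (4 genes between) differed by -0.07 (adjusted p = 0.830).

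Markers of seed coat and endosperm, the tissues around the embryo, and of the embryo were looked at beside the XTH genes. Both lists were written with earlier results of these data known. Of 19 seed coat and endosperm markers listed, 6 were measured and 5 rose, with a median difference of 1.66. Over all probe sets 18.3% were called higher. The summed level of the 6 on the linear scale was 5917 to 6927 in dcl1-15, against 2297 to 2612 in wild type. AT1G71250, the brightest of the 6, weighed most in that sum, with means of 11.33 in dcl1-15 and 10.18 in wild type. The largest rises among the 6 were those of DELTA-VPE, whose protease acts in inner layers of the seed coat, by 2.15, BAN, of tannin synthesis, by 1.85, and DFR, of flavonoid synthesis, by 1.70. AT5G26630 lay under log2 of 3 on all arrays in both genotypes. Leaving out dcl1-15 replicate 2 ended the calls of BAN (adjusted p = 0.0613) and DFR (0.0948), as did leaving out dcl1-15 replicate 3 (0.0647 and 0.0957). With values floored at 4 on the log2 scale BAN differed by 0.46 and lost its call (adjusted p = 0.140). DELTA-VPE rose by 1.497 without wild-type replicate 1 and by 2.77 without wild-type replicate 2, both past the threshold. Without both arrays numbered 3 BAN, DFR and DELTA-VPE did not pass (adjusted p = 0.121, 0.124 and 0.0816), nor did DFR without those numbered 2 (0.0674). Tested on each probe set's own spread alone, the calls of all 5 were lost (adjusted p from 0.0619 for SWEET11 to 0.199 for DELTA-VPE). SWEET11 and AT1G71250, which rose by 1.62 and 1.15 (limma adjusted p = 0.000191 and 0.00118), lost theirs in no other setting. Embryo organ and meristem markers went the other way: of 20 listed, 4 were measured and CLV3, YAB3 and BBM fell, by 1.44, 3.90 and 1.59. Over all probe sets 20.8% were called lower. PHV differed by -0.36 (adjusted p = 0.123) and passed only with centring on the 4 reference genes (adjusted p = 0.0288). CLV3 lay under log2 of 4 on all arrays. CLV3 and BBM did not pass on their own spread alone (adjusted p = 0.118 and 0.0959), nor did CLV3 without both arrays numbered 2 (adjusted p = 0.0541), and YAB3 passed in each setting. The summed level of the 4 on the linear scale was 768 to 1012 in dcl1-15, against 2414 to 3086 in wild type. YAB3 and PHV, the brightest in wild type with means of 10.82 and 9.90, made up most of that sum. BBM and CLV3 averaged 5.49 and 3.07 in wild type, and the fall of the sum was mainly that of YAB3. The part of either marker group in the XTH differences was not tested.

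The rises of XTH19 and XTH16 passed under all 16 alternative settings, at 2.60 to 2.98 and 1.97 to 2.38. Their highest adjusted p, 0.0259 and 0.0464, came from the test on each probe set's own spread alone, where XTH16 passed narrowly. Leaving out any 1 array kept 4 members past the threshold.

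**Figure D4:**
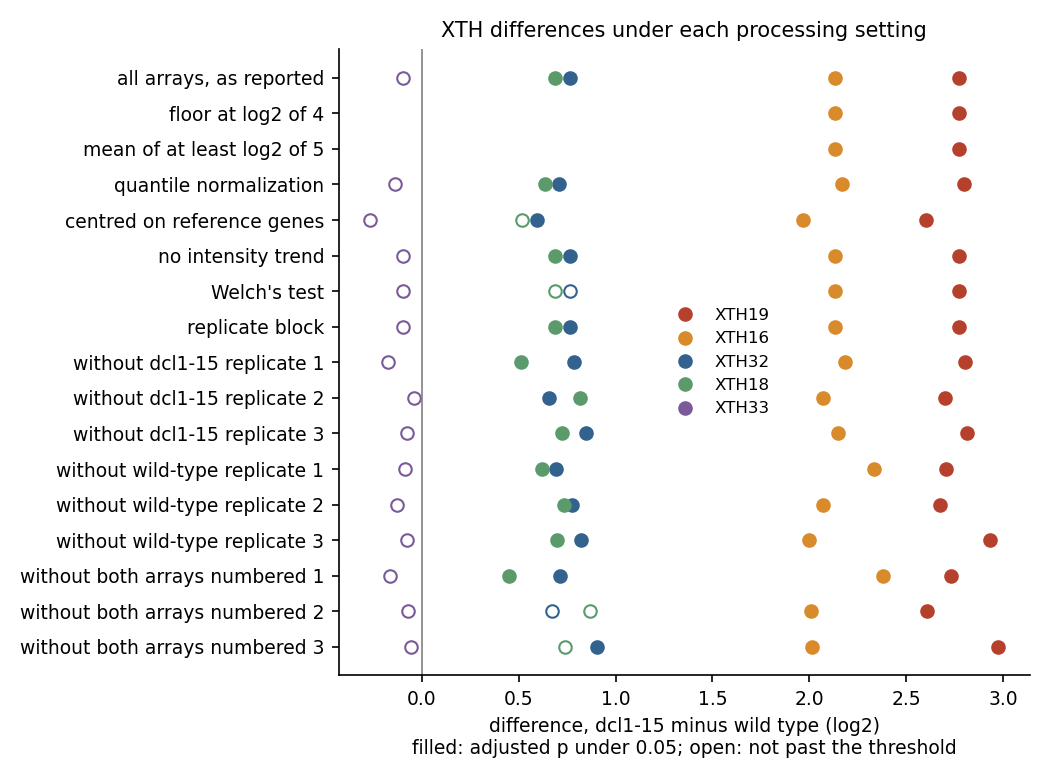
Log2 difference of dcl1-15 minus wild type for each XTH member (colours) under each processing setting (rows). Filled points passed an adjusted p of 0.05. XTH19 and XTH16 stay filled in all rows, XTH18 and XTH32 are open in 4 and 2 rows, and XTH33 is open in each. XTH18, XTH32 and XTH33 have no point in the 2 rows that floor or remove low values.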

How the data were processed

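The deposited table holds log2 values that the authors normalized between arrays. Per the submitters' processing notes, GCRMA and MAS5 were used. No source used here says which of them made the values or how rows were chosen. Of 17159 probe sets, 37 array controls were set aside. Of the 17122 tested, the platform annotation named 1 gene for 9631, several for 365 and none for 7126, and 9584 of the first were matched by gene identifier to RefSeq (TAIR10.1), used for symbols and gene order.

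The comparison of genotypes used lmFit and eBayes (intensity trend) of limma 3.58.1, run under R 4.3.3. P-values were adjusted by Benjamini-Hochberg over the 17122 probe sets, 0.05 was the threshold, and the fit was tested on simulated data. The number of arrays limits the precision. P-values weigh the genotype difference against the spread between these samples. Whether that spread includes variation between sets of plants is not known from the labels. Where a gene had several probe sets, the brightest on average stood for it in lists. Members and lists were chosen with earlier results of these data known. Genes named were all members, the other measured family gene, from each list up to 3 genes of largest change that passed (all where 3 or fewer were measured), the 3 nearest profiles and the nearest measured neighbours. Others, such as AT5G26630, PHV and the CSLC genes that did not pass, were named after their values were seen.

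Deviations from the genotype means correlated at 0.48, 0.21 and 0.36 between same-numbered arrays, all above 0.1. Unlike-numbered arrays correlated at 0.31 (dcl1-15 replicate 3 with wild-type replicate 2) and 0.15 (dcl1-15 replicate 2 with wild-type replicate 3). Where an array numbered 1 met another number, correlations ran from -0.44 to -0.23. The 3 deviations of a genotype cancel each other, so these negative values follow in part from the 0.48 and are not separate evidence. These values set the arrays numbered 1 apart but do not match those numbered 2 and 3 singly. The main fit used genotype only and did not pair the arrays. The numbers were taken as pairs in the replicate block, the paired exact test and where both arrays of a number were left out. That was a choice made from the data, as the labels do not say what a number marks. Alternatives covered low values, scaling, variance model, test, the replicate block and arrays left out.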

Additional observations from a re-analysis of the deposited data

How the results depend on the processing

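XTH19, XTH16 and XTH33 kept their direction and side of the threshold under all alternatives that gave them a value (16, 16 and 14). In the fit with the replicate block XTH19, XTH16, XTH32, XTH18 and XTH33 had adjusted p = 4.53e-05, 0.000162, 0.00483, 0.0166 and 0.551, with 4 members higher, and 3834 probe sets were called higher and 4591 lower, so it changed no member's call. Among the other named genes the block added EXPA20 (adjusted p = 0.0330), for 7 wall list genes higher. XTH18 lost its call when centred on reference genes (0.52, adjusted p = 0.0688), with Welch's test, which uses each probe set's own spread alone (0.68, adjusted p = 0.138), and without both arrays numbered 2 (0.87, adjusted p = 0.0594) or 3 (0.74, adjusted p = 0.0964). XTH32 lost its call with Welch's test (0.76, adjusted p = 0.0548) and without both arrays numbered 2 (0.67, adjusted p = 0.0826). The settings without arrays numbered 2 or 3 were chosen after seeing the data.

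A floor at log2 of 4, or a mean of at least log2 of 5, leaves XTH18, XTH32 and XTH33 without a value, so 2 members were higher. Of the members, 2 were also higher (0 lower) with Welch's test and without both arrays numbered 2. Over all probe sets the higher and lower calls numbered 3140 and 3562, 2306 and 2840 with the floor, 1967 higher with the filter at log2 of 5, 997 and 1085 with Welch's test, 1327 and 1166 without both arrays numbered 2, and 1702 and 1449 without both numbered 3. Leaving out 1 array gave 2193 to 3513 higher and 2293 to 4463 lower. Wall list genes numbered 6 higher and 1 lower, with 3 higher under the floor, the filter, Welch's test and without both arrays numbered 2 (0 lower) or 3, 2 lower without both arrays numbered 1, and 3 to 7 higher and 1 to 2 lower with 1 array left out. Centring on the 4 reference genes, of which GAPC2 rose by 0.50 (adjusted p = 0.00865), moved the median of all probe sets to -0.24 from -0.07 and the share of calls that were higher to 33.0% from 46.9%, and 3 members rose. Where a call was lost, the cause was not tested, except that low values were removed by the floor and filter themselves. Signal over background is not given, which limits what can be said of the dim members.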
